A study of Equus caballus with 2 samples.

Results

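The region described here runs from 28 to 34 Mb on chromosome 20 of the horse and was taken as the equine major histocompatibility complex (MHC). Its members were the CpGs in that stretch covered by 10 reads or more in each library, 3528 of the 877053 CpGs that met this minimum on all listed chromosomes. They were chosen by position and coverage, not by their methylation. The name of the build is not given in the sources used here. The largest position listed on chromosome 1 was 185837027, close to the end of chromosome 1 in the assembly EquCab2, and on that ground the files' coordinates were read as EquCab2. The name MHC rests on that reading, and all positions below are those of the deposited files.

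Methylation levels came from reduced representation bisulfite sequencing (RRBS), which reads short fragments cut at CCGG sites, so that CpG-rich DNA is sampled most. The study compared 1 equine sarcoid, a fibroblast tumour of horse skin, with 1 sample of tumour-distant skin. Both came from horse 1, and each library was made from whole tissue DNA, so a change within cells and a change in the mix of cells cannot be told apart. The skin library held 48650606 reads over cytosines and the sarcoid library 35970547. With 1 library per tissue there was no replicate, and every test below compares these 2 libraries and not the conditions. Tissue markers were not measured.

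The MHC is a gene-dense stretch that holds the genes of class I and class II molecules, which present peptides to T cells, together with genes that prepare those peptides and a class III block with complement and cytokine genes. Class I genes are expressed by most nucleated cells, and class II genes mainly by antigen-presenting cells and by cells exposed to interferon gamma. CpG-rich promoters are usually unmethylated whether or not the gene is active, while DNA between genes is usually methylated.

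Which genes lie at the measured CpGs could not be read from the files, and no annotation of their build was used here. In RefSeq's table for another horse assembly (TB-T2T), 43 of 69 searched symbols of MHC and flanking genes were found, and all 43 were on chromosome 20. They comprised 2 of 9 class I symbols, 4 of 16 of class II, 20 of 26 of class III, 5 of 5 of antigen processing and 12 of 13 flanking genes. In that table the order ran from GABBR1 and MOG past EQMHCB2 and POU5F1 to the class III genes from DDX39B through TNF to NOTCH4. DRA, TAP2, PSMB8, TAP1 and PSMB9 followed, and RING1, TAPBP and DAXX stood at the far end. These names say only which genes the chromosome carries: none is tied to a CpG below.

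The region was sampled densely. It held 5203 CpGs listed in either library, 867 per Mb, against 430 per Mb on the rest of chromosome 20. Of those, 3528 (67.8%) were used, beside 17183 of 25014 (68.7%) on the rest of the chromosome. The median distance between neighbouring used CpGs was 11 bp, and 85.8% lay within 75 bp of the next, which is the length of a read. Members are therefore not independent measurements. Coverage was uneven along the region: 10 of its 58 listed 100 kb windows held 45.9% of the members. The longest stretch without a member ran for 336 kb between the CpGs at 32622691 and 32958799.

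Most members were low in methylation in both tissues. The mean level was 24.8% in skin and 25.2% in sarcoid, and the medians were 2.78% and 2.56%. In all, 1315 members (37.3%) had no methylated read in either library, and 2224 (63.0%) were at 20% or below in both. Only 422 (11.96%) were at 80% or above in both. On the rest of chromosome 20 the mean level was 37.5% in skin and 37.0% in sarcoid, 46.7% of CpGs were low in both libraries and 20.2% were high in both.

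The 2 libraries differed little on average. The mean difference, sarcoid minus skin, was +0.363 percentage points, with a 95% interval for counting error of 0.111 to 0.615 points. It was -0.502 points (-0.629 to -0.374) on the rest of chromosome 20 and -1.31 points on the other chromosomes. The sarcoid was higher at 1093 members, lower at 1092 and equal at 1343, so the positive mean came from the size of changes and not from their number. It rested on few positions: without the 2 adjoining 1 kb tiles from 31716001 to 31718000 it was +0.086 points, and with levels weighted by reads it was -0.938 points (-1.11 on the rest of the chromosome). Single CpGs scattered widely around these means, with an SD of 11.8 points in the region and 13.9 points on the rest of chromosome 20. No test of the region against the rest was made, since there is 1 library per tissue.

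**Figure D1:**
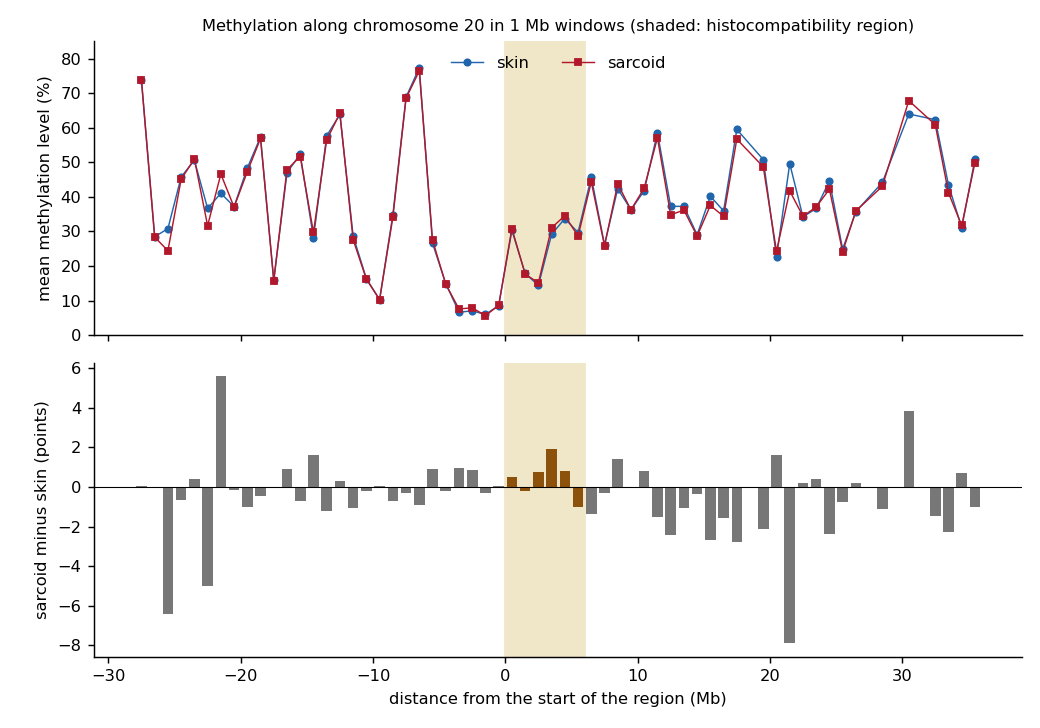
Mean methylation level (%) of the skin and sarcoid libraries (top) and mean difference, sarcoid minus skin in percentage points (bottom), in 1 Mb windows with at least 50 CpGs along chromosome 20, by distance from the start of the region in Mb, with the region shaded. In both panels its 6 windows lie between the lowest and the highest of the other 54, which run from 5.97% to 77.4% in skin and from -7.90 to +5.58 points.

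Along the region, levels were lowest in the 2 windows from 29000001 to 31000000. From 28000001 to 29000000, 265 CpGs averaged 30.3% in skin and 30.8% in sarcoid. The next Mb, from 29000001, held 876 CpGs at 17.9% and 17.7%. The 451 CpGs from 30000001 to 31000000 averaged 14.4% and 15.1%. Medians were 0% in both libraries in the former and 2.17% in skin and 2.61% in sarcoid in the latter, so a minority of CpGs carried most of the methylation there. From 31000001 the means rose to 29.1% in skin and 31.1% in sarcoid over 947 CpGs. The window from 32000001 was sparse, with 109 CpGs at 33.7% and 34.6%. The last Mb, from 33000001 to 34000000, held 880 CpGs at 29.7% and 28.7%. The other 54 windows of the chromosome ranged from 5.97% to 77.4% in skin, with a median of 37.3%, so no window of the region stood outside them.

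The windows differed in direction. The largest rise was in the fourth Mb, from 31000001, at +1.91 points (counting interval 1.40 to 2.43). The largest fall was in the last Mb, at -1.03 points (-1.53 to -0.535). Differences in the other 54 windows ran from -7.90 to +5.58 points, so both values were within the spread along the chromosome. Without the 2 tiles from 31716001 to 31718000 that rise was +0.91 points. Within the fourth Mb, the stretch from 31500001 to 32000000 differed by +2.93 points, with 17 CpGs called higher and 1 called lower, and by +1.24 points without those tiles. Its earlier part held opposite changes: the 46 CpGs from 31000001 to 31100000 averaged 31.3% in skin and 20.9% in sarcoid, with 37 lower, and the 115 from 31100001 to 31200000 averaged 4.01% and 10.46%, with 75 higher. From 29500001 to 30000000, 9 CpGs were called lower and none higher. Among the 47 windows of 100 kb with at least 10 members, 25 had a positive and 22 a negative mean difference.

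Beyond the borders levels differed from those of the region's own outer windows. The Mb just before it, from 27000001, averaged 8.55% in skin and 8.59% in sarcoid over 181 CpGs. The Mb just after it, from 34000001, averaged 45.7% and 44.3% over 1124 CpGs, close to the last 100 kb of the region, from 33900001, where 200 CpGs averaged 45.98% and 42.9%. At the coverage minimum levels were lower than just under it. The 160 members whose lower coverage was exactly 10 reads averaged 25.8% in skin and 28.02% in sarcoid. The 159 CpGs just under it, at 9 reads, averaged 29.4% and 30.7%. The mean difference was +2.25 points in the former and +1.38 points in the latter. Over the whole region the means were 25.4% in skin and 25.5% in sarcoid at a minimum of 5 reads. At a minimum of 20 they were 22.8% and 23.2%.

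The low mean level of the region went with the number of CpGs around each site. Tiles of 1 kb were grouped by how many CpGs were listed in them. In tiles with 5 or fewer, the 543 members averaged 53.0% in skin, and the 4246 CpGs of the rest of chromosome 20 averaged 57.5%. With 6 to 10 listed CpGs the levels were 48.4% and 50.3%. With 11 to 20 they were 20.5% in the region and 27.4% elsewhere. In each class the region was the lower, by differing amounts: with 21 to 40 listed CpGs the levels were 9.51% and 16.9%, and with over 40 they were 2.17% and 5.67%. Dense tiles were also more common in the region, where 29.6% of members lay in tiles with 21 to 40 and 11.3% in tiles with over 40, against 18.5% and 6.71% on the rest of the chromosome. When the rest of chromosome 20 was weighted to the region's mix of these classes, its mean was 30.3% in skin and 30.1% in sarcoid, between its own mean and that of the region.

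**Figure D2:**
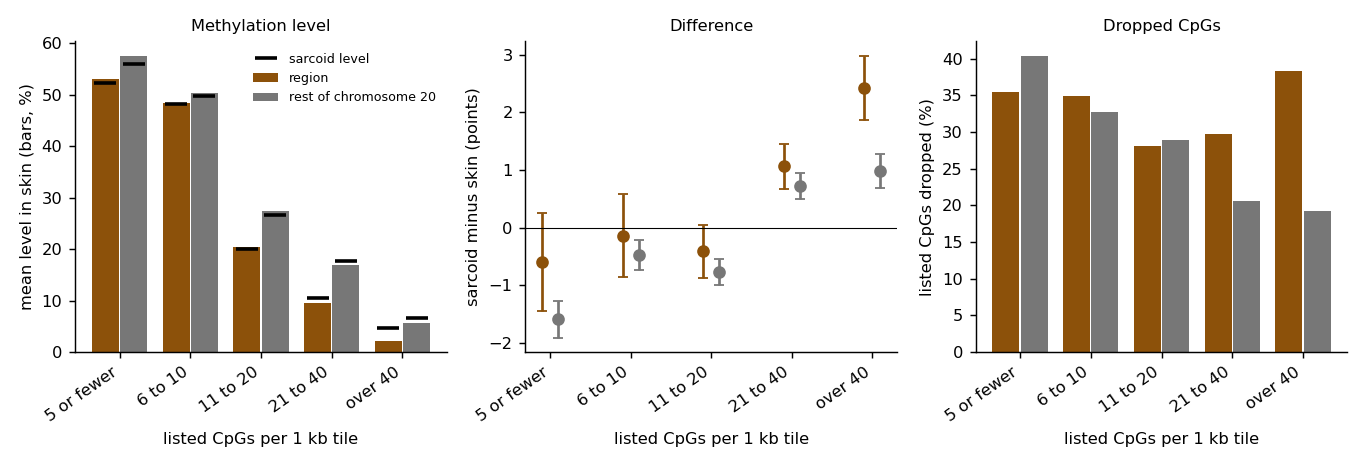
Mean methylation level (left, %; bars for skin, black marks for sarcoid), mean difference (middle, sarcoid minus skin in percentage points, with 95% counting intervals) and share of listed CpGs dropped (right, %), by how many CpGs each 1 kb tile listed, in the region and on the rest of chromosome 20. Levels fall from the sparsest to the densest tiles in both, and in the densest the difference is +2.42 points in the region and +0.982 points elsewhere.

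In the region the mean difference between the libraries was negative in the sparser classes and positive in the denser ones. On the other chromosomes it was negative in every class, at -0.787 points with 21 to 40 listed CpGs and -0.317 points with over 40. It was -0.598 points (counting interval -1.44 to 0.250) in the sparsest tiles of the region, where the rest of the chromosome stood at -1.59. It was -0.137 (-0.848 to 0.575) and -0.412 points (-0.873 to 0.0498) in the region's 2 next classes. These intervals, like that of the sparsest tiles, included no change. In tiles with 21 to 40 listed CpGs it was +1.06 points (0.678 to 1.44), beside +0.723 elsewhere. That rise, in a class with 312 members lower in the sarcoid and 271 higher, rested on the 2 tiles from 31716001 to 31718000. Without them it was +0.13 points. In the densest tiles it was +2.42 points (1.86 to 2.98), beside +0.982 (0.687 to 1.28) elsewhere. That last value moved with the processing: it was +1.68 points without 1 tile, from 31117001, +1.36 points when weighted by reads (0.235 elsewhere), +1.89 at a minimum of 5 reads and +3.21 at a minimum of 20.

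Only 12 tiles of the region listed more than 40 CpGs, and the rise in this class lay in few of them. The tile from 29424001 to 29425000 listed the most, 76 CpGs, of which 56 were used. Its mean was 4.23% in skin and 6.42% in sarcoid, and 1 CpG in it was called higher. The tile from 29092001 to 29093000 listed 64, and its mean over 47 used CpGs was 2.74% and 4.93%. The tile from 31117001 to 31118000 listed 74 CpGs and held 2 of the called rises: over 49 used CpGs the average went from 2.94% in skin to 10.7% in sarcoid, and 34 CpGs were higher and 6 lower. In the sarcoid 10 of its CpGs were above 20%, and 1 was in skin. Weighted by reads the whole tile was at 2.33% in skin and 5.41% in sarcoid.

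A pair of further CpG-rich tiles moved the same way, both in the 100 kb after that one. The 38 used CpGs from 31196001 to 31197000 averaged 2.95% in skin and 10.7% in sarcoid, and 9 were above 20% in the sarcoid and none in skin. The 19 used CpGs from 31152001 to 31153000 averaged 6.87% and 10.96%, and 17 were higher and 2 lower. Their median coverage was 36 reads in skin but only 10 in sarcoid, the minimum, and 27 of 46 listed CpGs were dropped. Neighbouring CpGs share reads, so these are not counts of separate changes. No CpG of either tile was called. In the remaining 7 CpG-rich tiles the means stayed below 2% in both libraries where more than 2 CpGs were used. Low levels were thus kept in most of the densest tiles: the tile from 29761001 had no methylated read at any of 21 CpGs in either library, and the tile from 33429001 averaged 0.05% in skin and 0% in sarcoid over 36.

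**Figure D3:**
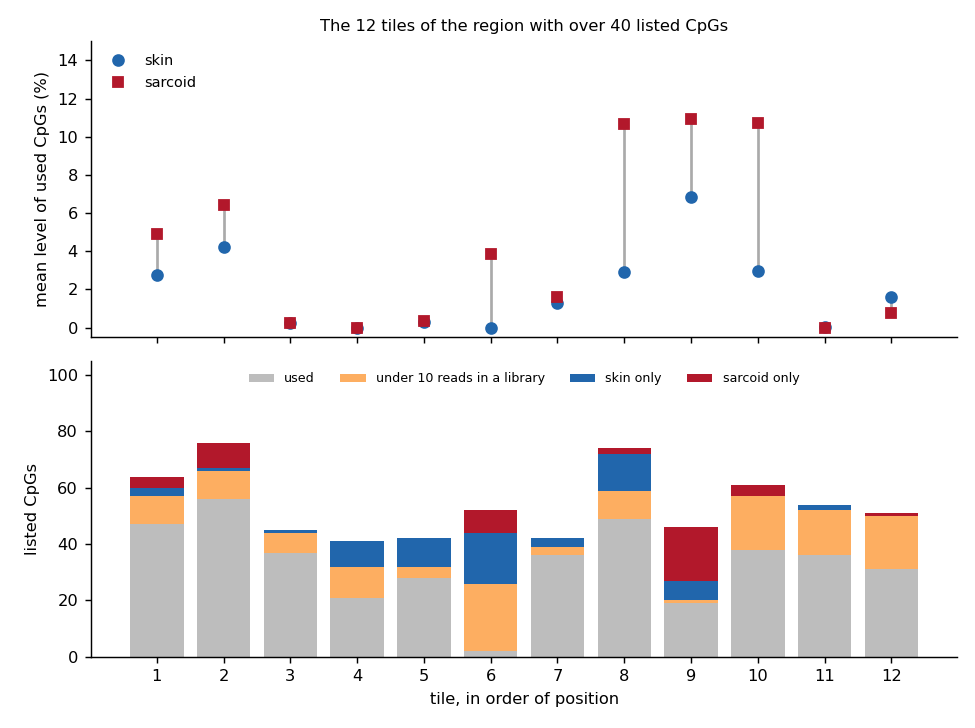
The 12 tiles of the region with over 40 listed CpGs, in order of position, with the mean methylation level (%) over used CpGs in skin and in sarcoid (top) and the number of listed CpGs that were used, under 10 reads in a library, or listed in 1 library only (bottom). Tiles 8 and 10, from 31117001 and 31196001, average 2.94% and 2.95% in skin and 10.7% each in sarcoid, and tile 6 rests on 2 used CpGs.

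Tiles with more than 20 listed CpGs were mostly low in both libraries. Of 63 such tiles with at least 3 used CpGs in the region, 54 (85.7%) had pooled levels at or below 20% in both, beside 134 of 176 (76.1%) on the rest of chromosome 20. The 9 others in the region were of unlike kinds. The tile from 31972001 was highly methylated in both, at 84.8% in skin and 84.4% in sarcoid. Those from 28346001, 29546001 and 30353001 went from 76.6% to 73.8%, from 71.2% to 66.9% and from 74.0% to 63.3%. The tiles from 31363001 and 33934001 went from 27.0% to 20.2% and from 21.1% to 14.6%. Higher levels in the sarcoid were seen in the tile from 31764001, at 22.6% and 36.1%, and in the adjoining tiles from 31716001 and 31717001, described below.

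Each CpG was tested by Fisher's exact test, two-sided, on its methylated and unmethylated reads, with Benjamini-Hochberg adjustment over all chromosomes. A call needed q below 0.01 and a gap of 25 points or more. In the region 46 members (1.30%) were called, of which the sarcoid was lower at 20 and higher at 26. The share called was 1.52% on the rest of chromosome 20, with 162 lower (0.943%) and 100 higher (0.582%), and 2.84% over all chromosomes, with 1.89% lower and 0.954% higher. With the rest of the chromosome weighted to the region's mix of CpG density, its share was 1.23%. The region's share was thus near its background, below it or above it depending on the reference. Without the 2 tiles from 31716001 to 31718000, 35 members were called, 20 lower and 15 higher, so the surplus of rises rested on those tiles.

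The called members were clustered. They lay in 27 tiles: 21 tiles held 1 each, and 4 tiles held 21 between them. Their differences ranged from 25.5 to 95.7 points in size, with a median of 40.2. Of the 20 lower ones, 11 started at 80% or above in skin and 9 between 20% and 80%. Of the 26 higher ones, 11 started at 20% or below and 15 in between. Strand make-up was uneven: 25 were read on both strands in both libraries, 14 on the same single strand, and 7 on unlike strands in the 2 libraries.

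**Figure D4:**
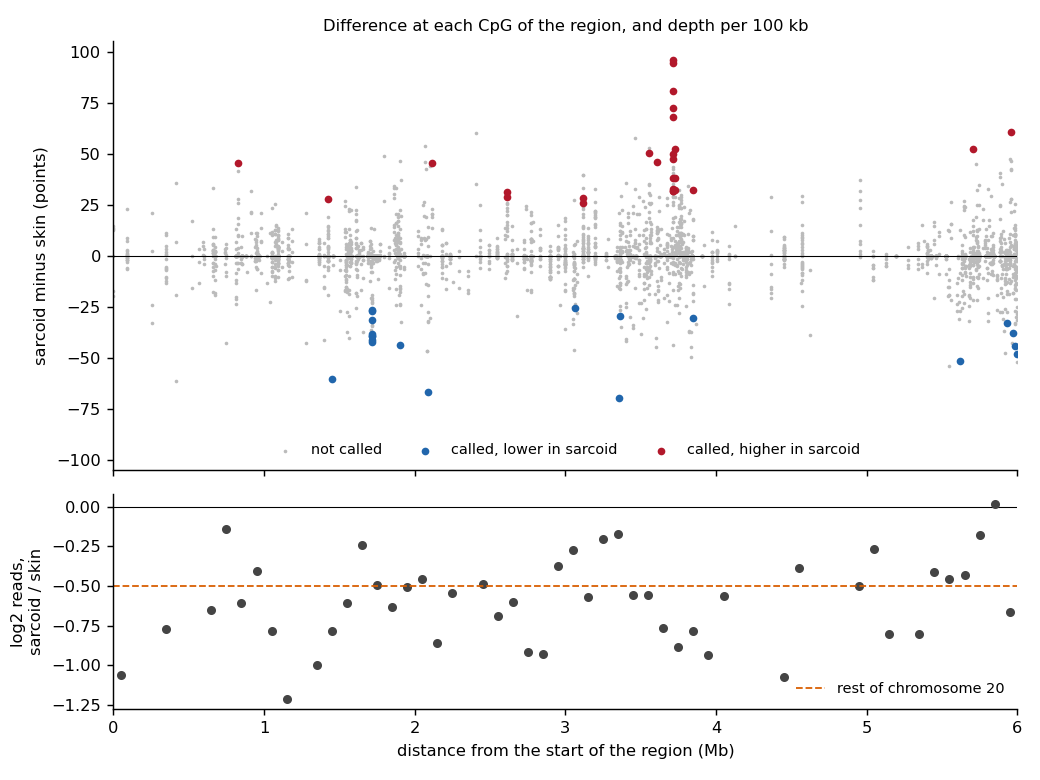
Methylation difference of each member (top, sarcoid minus skin in percentage points, called CpGs in colour) and log2 ratio of sarcoid to skin reads in 100 kb windows with at least 10 members (bottom), by distance from the start of the region in Mb, with a dashed line at the ratio of the rest of chromosome 20, -0.50. The 46 called CpGs fall in groups, the largest being the falls in the tile from 29719001 and the rises in the tile from 31717001.

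Pooled over 1 kb, 7 of 336 tested tiles of the region (2.08%) were called, 4 lower and 3 higher. The share called was 4.63% on the rest of chromosome 20 (3.2% lower and 1.43% higher) and 6.38% over all chromosomes (4.1% lower and 2.28% higher). These shares are not matched for CpG density, and 44.3% of the region's tiles were low in both libraries against 28.7% on the rest. Among tiles with more than 20 listed CpGs, 1 of 63 (1.59%) was called in the region. On the rest of chromosome 20 it was 2 of 176 (1.14%), and on the other chromosomes 2.53%. A tile was tested where at least 3 CpGs were used, with the same test and thresholds on summed reads. Read numbers given for tiles are sums over their CpGs. Reads that span several CpGs enter a tile more than once. The p-values of tiles are therefore smaller, and their Wilson intervals narrower, than they should be. When reads were divided by the number of CpGs per read, so that each counted about once, 4 of the 7 remained called: the tiles from 29719001, 31556001, 31717001 and 33995001. The share called was then 1.19% in the region and 2.05% on the rest of chromosome 20.

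The clearest fall lay in the tile from 29719001 to 29720000. All 10 of its used CpGs were lower in the sarcoid, 7 of them called singly. Its pooled level was 30.05% in skin (Wilson 95% interval 26.6 to 33.7, 649 reads) and 1.04% in sarcoid (0.443 to 2.40, 483 reads), with an adjusted Fisher's exact p of 1.98e-43 for these 2 libraries. With each read counted about once, the adjusted Fisher's exact p was 1.86e-10. The 10 CpGs ranged from 3.23% to 44.3% in skin and from 0% to 3.77% in sarcoid. At 29719200, for example, 27 of 61 reads were methylated in skin and 1 of 51 in sarcoid. A run of 5 neighbouring called CpGs, from 29719218 to 29719266, spanned 49 bp, at 26.6% to 43.1% in skin and 0% to 3.77% in sarcoid, with 63 to 65 reads and 45 to 53 reads. Most reads of that run were on the minus strand in both libraries, and on the plus strand alone none of its CpGs was called.

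The low levels of the sarcoid extended over neighbouring tiles. From 29717001 to 29720000 all 19 used CpGs were lower in the sarcoid. The tile from 29717001 to 29718000 was also called, at 34.3% in skin and 8.70% in sarcoid over 5 CpGs with 175 and 230 reads. There the skin reads came from both strands and the sarcoid reads from the plus strand only, and with each read counted about once the difference was -23.3 points and the tile was not called. Between these tiles, 4 CpGs from 29718915 to 29718984 ranged from 11.1% to 40.5% in skin and from 0% to 6.06% in sarcoid. None of those 4 was called.

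**Figure D5:**
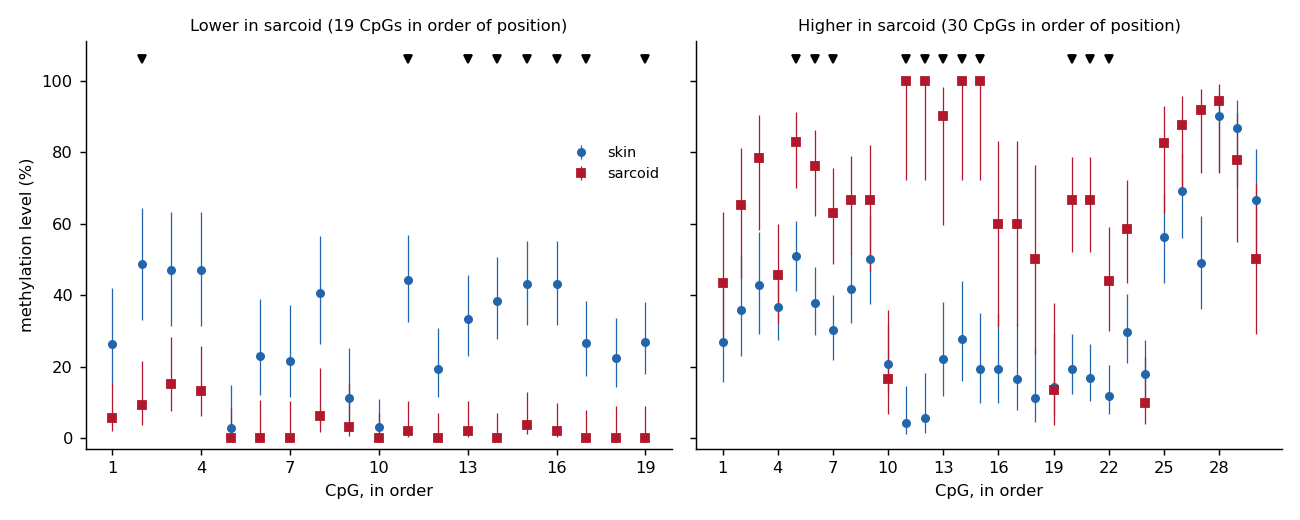
Methylation level of each used CpG in skin and in sarcoid, in order along the chromosome, with Wilson 95% intervals and triangles at called CpGs, for the 19 CpGs of the cluster lower in the sarcoid (left) and the 30 CpGs of the cluster higher in the sarcoid (right). All 19 on the left are lower in the sarcoid, and the rises on the right are largest at 5 CpGs with 10 sarcoid reads each.

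The largest rise among tiles lay from 31717001 to 31718000. Its pooled level was 29.8% in skin (27.0 to 32.7, 1004 reads) and 63.7% in sarcoid (59.1 to 68.1, 433 reads), with an adjusted p of 7.66e-31 by Fisher's exact test. With each read counted about once, the adjusted Fisher's exact p was 1.25e-06. Of the tile's 20 used CpGs 16 were higher and 4 lower, and 8 were called. A run of 5 called CpGs from 31717001 to 31717034, 34 bp long, was at 4.35% to 27.8% in skin and 90% to 100% in sarcoid. Each of the 5 had only 10 sarcoid reads, all on the minus strand, which is the coverage minimum, so at a minimum of 20 reads none of them could be tested. The rise did not rest on them alone: at 31717094, 16 of 83 reads were methylated in skin and 30 of 45 in sarcoid, and at 31717097, 14 of 83 and 30 of 45.

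The tile before it rose as well. From 31716001 to 31717000 pooled levels were 37.9% in skin against 62.5% in sarcoid and differed by 24.6 points, just under the 25 points asked for, with an adjusted p of 1.63e-12 by Fisher's exact test. It held 3 called CpGs. At 31716876 the level was 37.9% of 95 reads in skin and 76.1% of 46 in sarcoid. Further CpGs rose in the tile from 31730001, where 31730048 was at 36.8% in skin and 89.1% in sarcoid, 31730067 at 40.9% and 73.2%, and 31730114 at 52.4% and 90.5%. Their neighbours from 31730774 to 31730853 ranged from 77.8% to 97.8% in skin and from 65.5% to 100% in sarcoid, and none of these was called.

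The other called tiles changed from intermediate or high levels. In the tile from 31556001 to 31557000 all 8 CpGs were higher in the sarcoid, and the pooled level was 42.4% in skin (524 reads) and 74.3% in sarcoid (257 reads). From 33995001 to 33996000 it was 73.2% (467 reads) and 44.3% (262 reads), with 8 of 9 CpGs lower and the ninth at 0% in both. These 2 tiles were covered by several CpGs of moderate depth. The remaining pair rested on fewer reads and was not called with each read counted about once. From 33888001 to 33889000 the level was 41.8% in skin (263 reads) and 68.0% in sarcoid (97 reads) over 5 CpGs. From 31831001 to 31832000 it was 78.5% (65 reads) and 33.3% (33 reads) over 3 of 8 listed CpGs.

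The 3 largest falls and 3 largest rises among called CpGs covered by 20 or more reads in each library lay apart from one another. The CpG at 29448229 was at 95% of 20 reads in skin and 34.6% of 26 in sarcoid, and that at 33622690 at 94.3% of 35 and 42.9% of 28. The largest of these falls, at 30091329, was from 90.5% to 23.8% with 21 reads in each. It compared plus-strand reads in skin with reads of both strands in the sarcoid, and on the plus strand alone the difference was -45.0 points. The largest of these rises was at 33958143, from 24.2% of 62 reads to 85% of 20. The CpG at 33707650 went from 30.4% of 56 reads to 82.6% of 23, and 31730048 from 36.8% of 114 to 89.1% of 55. At 33707650 skin reads came from both strands and sarcoid reads from the plus strand only. At 29448229 and 33958143 all reads of both libraries were on the plus strand. Their calls on the plus strand alone therefore used the same reads and were no further test. The other 4 were not called on the plus strand alone. Their adjusted Fisher's exact p was 0.166 at 30091329, 0.131 at 33622690, 0.020 at 31730048 and 0.027 at 33707650. All 6 were called at minimums of 5, 10 and 20 reads. Because they were picked from 20 reads up, these minimums left their reads unchanged and altered only the adjustment. None of the 6 was called when each CpG was thinned to 10 reads, a setting that called no CpG on the rest of chromosome 20 either. Even a thinned gap of 70 points, at 33707650, had an adjusted Fisher's exact p of 0.631. The thinned setting therefore cannot decide whether these calls hold.

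Depth in the region was slightly lower in the sarcoid relative to the rest of the chromosome. Members held 186340 reads in skin and 126182 in sarcoid, a log2 ratio of -0.56, beside -0.50 on the rest of chromosome 20 and -0.43 on the other chromosomes. The offset from the rest of the chromosome was -0.06 on the log2 scale. Averaged over the classes of CpG density at the region's mix, the log2 ratios were closer, -0.55 in the region and -0.53 on the rest. By window the log2 ratio itself, not the offset, ran from -0.73 in the fifth Mb to -0.37 in the last Mb. That was within the spread of the chromosome, where the other 54 windows ran from -0.74 to -0.09. Members had a median of 44 reads in skin against 30 in sarcoid.

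Some tiles went far from that ratio, and were picked out after their values were seen, among tiles with at least 5 used CpGs. The sarcoid was shallowest for its skin depth in the tile from 31344001, with 542 reads in skin and 135 in sarcoid. It was deepest in the tile from 33847001, with 275 and 851 reads. Methylation was alike in both: 88.9% and 87.4% in the first, and 0% in both libraries in the second. The deepest members of the region in the sarcoid were 5 CpGs of the CpG-rich tile from 31117001, with 450 to 459 reads against 266 to 277 in skin and average levels of 0.880% in skin and 1.53% in sarcoid. On the rest of chromosome 20 no used CpG had more than 265 reads in skin or 193 in sarcoid.

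Of the 5203 listed CpGs, 1675 (32.2%, exact binomial 95% interval 30.9 to 33.5) did not enter the comparison, against 31.3% (30.7 to 31.9) on the rest of chromosome 20. The difference lay in CpGs listed in skin only, 557 (10.7%, 9.88 to 11.6) against 9.27% (8.92 to 9.64). Those listed in the sarcoid only made up 4.27% against 4.81%, and those under the minimum 17.2% in both. The dropped CpGs of the region were low in methylation too. Those listed in skin only averaged 31.3% there, against 51.3% on the rest of the chromosome. Those listed in the sarcoid only averaged 18.5%, against 47.4%. Of the 557 listed in skin only, 207 (37.2%) had 10 or more reads there, and of the 222 listed in the sarcoid only, 92 (41.4%) did. Counting intervals treat CpGs as independent, which neighbours on 1 fragment are not.

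The densest tiles lost more CpGs in the region than elsewhere. In tiles with over 40 listed CpGs 38.3% (34.5 to 42.1) were dropped in the region and 19.2% on the rest of the chromosome, and with 21 to 40 it was 29.7% and 20.5%. In tiles with 6 to 10 the shares were 34.8% and 32.8%, and in the sparsest tiles 35.5% and 40.3%. Part of the gap came from 1 tile, from 30727001 to 30728000, where 2 of 52 listed CpGs were used: 24 were under the minimum, 18 were listed in skin only and 8 in the sarcoid only. Without it the share was 33.2%, below that of the region's sparser tiles of up to 10 listed CpGs. Groups of CpGs were listed in 1 library only elsewhere. All 15 CpGs of the tile from 33906001 were listed in skin only, with a median of 19 reads and no methylated read. In the tile from 31152001, 19 of 46 were listed in the sarcoid only, with a median of 8 reads, and 7 in skin only. In all, 107 of 549 listed tiles had no used CpG, which left 434 CpGs uncompared.

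The strands of single CpGs were far apart in part of the region. Among 857 members with at least 10 reads on each strand in both libraries, the strands differed by 30 points or more at 59 (6.88%, 5.28 to 8.79) in skin and at 70 (8.17%, 6.42 to 10.2) in sarcoid. On the rest of chromosome 20 the share was 12.9% in skin and 12.9% in sarcoid. At 51 of them the strands were apart in both libraries, and in all 51 with the same sign. The share fell with CpG density, from 24.4% in skin in the sparsest tiles to 0% in the densest, as it did elsewhere, from 37.5% to 0.541%. Among the 1412 members read on both strands in both libraries, 25 (1.77%) were called. With the adjustment repeated over such CpGs alone, 28 were called, 1.98% beside 1.88% on the rest of chromosome 20. Once those with strands 30 points or more apart were also left out, 23 were called, 1.86% beside 1.91%.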

How the data were processed

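Libraries were prepared after Illumina's RRBS guide and sequenced as 75 bp single-end reads, 1 lane each, per the labels' protocols. FastQC, BSMAP and methylKit were named without versions per the submitters' processing notes, with the build not given in the sources used here. Per the file headers, the deposited files hold a read count (coverage) for each cytosine and the share of them read as C and as T, in percent.

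Here, the product of coverage and percent C was rounded to give methylated reads. It was further from a whole number than 0.0005 of the coverage at 0.460% of the region's cytosines in skin and 0.189% in sarcoid, and these stayed in. Strands were merged by subtracting 1 from minus-strand positions and adding reads. A CpG was used from 10 reads in each library. Mean levels weigh CpGs equally, and differences are sarcoid minus skin. Counting intervals are 95% intervals from binomial errors of single CpGs. Intervals cover counting error only, since PCR reads that carry no molecular identifier may copy 1 molecule.

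CpGs and 1 kb tiles on all chromosomes were tested by Fisher's exact test, two-sided. Named were every 1 Mb window, the 5 largest rises and falls among called tiles, the 3 tiles with most listed CpGs, runs of at least 4 called CpGs with gaps up to 200 bp, and the 3 largest rises and falls among called CpGs with at least 20 reads. The region, its gene list and these rules were chosen with earlier results of these data known. Other tiles were named after their values were seen. A deposited table of the authors' own comparisons was not used here. Scripts ran in Python 3.11.15 with NumPy 2.4.6 and pandas 2.3.3, used SciPy 1.17.1 for intervals, numba 0.67.0 for the tests and matplotlib 3.10.9 for plots, and were tested on simulated data.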

Additional observations from a re-analysis of the deposited data

How the results depend on the processing

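The mean difference of +0.363 points was +0.047 at a minimum of 5 reads, +0.861 from 29 to 33 Mb, +0.049 over CpGs read on both strands, +0.086 without the 2 tiles from 31716001 and -0.938 with levels weighted by reads. A further 7 settings gave +0.187 to +0.590. The 46 called CpGs were 1.30% of members, beside 1.52% called on the rest of chromosome 20. They became 28 (13 lower, 15 higher) when only CpGs read on both strands were tested, 1.98% beside 1.88%. With strands under 30 points apart they were 23 (11 and 12), 1.86% beside 1.91%. The plus strand alone gave 8 (3 and 5), 0.369% beside 0.624%. At 40 points or more there were 23 (9 and 14), 0.652% beside 1.12%. At q below 0.05 there were 86 (40 and 46), 2.44% beside 2.97%. With each CpG thinned to 10 reads, Fisher's exact test called 0 in the region and 0 on the rest of chromosome 20. Even thinned levels of 30% in skin and 100% in sarcoid, at 33707650, had an adjusted Fisher's exact p of 0.631. A call was thus hardly reachable at that depth, and the thinned counts of calls say nothing about the region. In the region 49 members then had an unadjusted p below 0.05, beside 292 at full depth. The 7 called tiles (2.08%, beside 4.63% on the rest of chromosome 20) became 11 at a minimum of 5 reads, 2.84% beside 4.28%. They became 4 when each read counted about once, 1.19% beside 2.05%. The log2 depth relative to the rest of chromosome 20, -0.06, was -0.12 both from 29 to 33 Mb and as a median over CpGs. The share dropped, 32.2%, was 15.01% at a minimum of 5 reads (14.1% on the rest of the chromosome) and 55.7% at 20 (56.1%). Settings added after the data were seen left out the tiles named above or cytosines whose methylated reads were not whole. No paired analysis was possible because each tissue had 1 library. At the median depth of 44 and 30 reads, small changes at single CpGs were not detectable.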

Other observations

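The 4 windows of 1 Mb just before the region, which above are counted with the rest of chromosome 20, were lower in mean methylation than any window of the region. The 258 used CpGs from 24000001 to 25000000 averaged 6.63% in skin and 7.58% in sarcoid. The 425 in the Mb from 25000001 averaged 7.03% and 7.89%, and the 599 in the Mb from 26000001 averaged 5.97% and 5.66%. The mean of the fourth, from 27000001, stands above. Medians were 0% in both libraries in each of these windows. The window from 26000001 had the lowest mean in skin among the 54 windows outside the region.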
